A study of Caenorhabditis elegans with 2 samples.

Results

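Summits of REPO-1 chromatin association were described at 6 genes of the Hsp70 class in Caenorhabditis elegans: hsp-1, hsp-3, hsp-4, hsp-6, hsp-70 and hsp-110, of 19973 protein-coding genes on the nuclear chromosomes. They were taken by name from the gene annotation, and every summit from 1000 bp before to 1000 bp after each gene was kept. REPO-1 is the worm counterpart of SF3A2, a subunit of the U2 snRNP complex that recognises the branch site during splicing. The worms were strain OP688, genotype unc-119(tm4063) III; wgIs688, which stably expresses REPO-1 fused at its C terminus to GFP and FLAG, and chromatin was pulled down through GFP. Both biological replicates were whole, mixed-sex young adults collected 53 hours after release from L1 starvation, and no stress, other strain or untagged worms formed a comparison group. Tissues therefore cannot be told apart, nor tagged REPO-1 from other protein that the antibody recovers.

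Hsp70 proteins bind exposed hydrophobic stretches of unfolded clients and release them in cycles of ATP hydrolysis, driven by J-domain co-chaperones and by nucleotide exchange factors. Each compartment of the cell has its own member. HSP-1 is the constitutive Hsc70 of cytosol and nucleus, and HSP-110 belongs to the Hsp110 branch, whose proteins act as nucleotide exchange factors for Hsp70. HSP-3 and HSP-4 are the BiP proteins of the endoplasmic reticulum (ER), HSP-4 being the one strongly induced by the unfolded protein response, and HSP-6 is the mitochondrial Hsp70, made constitutively and raised further by mitochondrial stress. The gene named hsp-70 is induced by heat through the transcription factor HSF-1. Here hsp-1, hsp-3, hsp-6 and hsp-110 are called constitutive, and hsp-4 and hsp-70 stress-induced, from this background and not from a measurement in these worms.

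The sequences below show the bases at the strongest summits, from RefSeq's WBcel235 sequence, 5′ to 3′ on the strand of the gene. A capital within the run marks the summit base, and longer capitals mark a match to TTCNNGAA, the core of the heat shock element that HSF-1 binds, or to TGACGTG, an element of unfolded protein response promoters, searched on both strands. The hsp-4 run has no pooled summit and is shown because it holds the same element as hsp-3. The F44E5.4/F44E5.5 run is shown because it lies between a pair of heat-induced Hsp70 genes outside the 6.
hsp-1 upstream, chrIV:17278562-17278662, plus strand: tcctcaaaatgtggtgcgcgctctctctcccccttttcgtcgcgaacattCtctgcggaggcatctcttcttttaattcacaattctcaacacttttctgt
hsp-1 downstream, chrIV:17281331-17281454, plus strand: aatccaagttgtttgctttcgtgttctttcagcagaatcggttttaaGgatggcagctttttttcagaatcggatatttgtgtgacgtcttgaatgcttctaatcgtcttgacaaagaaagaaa
hsp-110 upstream, chrIII:8447099-8447199, minus strand: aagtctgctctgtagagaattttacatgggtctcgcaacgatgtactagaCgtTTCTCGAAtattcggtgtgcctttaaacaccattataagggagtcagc
hsp-110 downstream, chrIII:8443754-8443854, minus strand: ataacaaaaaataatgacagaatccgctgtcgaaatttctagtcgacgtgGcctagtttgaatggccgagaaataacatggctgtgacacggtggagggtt
hsp-3 upstream, chrX:6092165-6092265, minus strand: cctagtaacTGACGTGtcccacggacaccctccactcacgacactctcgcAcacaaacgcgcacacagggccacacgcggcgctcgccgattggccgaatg
hsp-6 downstream, chrV:4823842-4823942, minus strand: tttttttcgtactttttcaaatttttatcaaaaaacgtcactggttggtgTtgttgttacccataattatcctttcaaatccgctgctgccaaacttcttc
hsp-4 upstream, chrII:7352675-7352775, minus strand: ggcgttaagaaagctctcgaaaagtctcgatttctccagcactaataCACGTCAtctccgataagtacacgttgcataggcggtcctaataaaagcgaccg
F44E5.4/F44E5.5 gap, chrII:11759426-11759526, plus strand: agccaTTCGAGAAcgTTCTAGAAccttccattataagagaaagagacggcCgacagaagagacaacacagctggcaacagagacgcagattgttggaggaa

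Of the 6 genes, 4 had a replicated REPO-1 summit within 1000 bp (66.7%, Wilson 95% interval 30 to 90.3), against 10.7% of all protein-coding genes. Among the 3014 genes whose length lay within the members' range of 2195 to 3097 bp the share was 10.1%. The 6 genes were chosen with earlier results of these data known, so the interval is no test against either share. A replicated summit is one in the IDR-thresholded list, which consists of the 1789 summits with the highest signal among 30000 called on both replicates together. Signal is the authors' value for each summit, on a scale that is not stated, and is compared only within a list. The same 4 genes, hsp-1, hsp-3, hsp-6 and hsp-110, also had a summit within 1000 bp among the 1789 strongest of each replicate's own list, which held for 7.55% of all genes. They carried 11 replicated summits: 4 at hsp-1, 4 at hsp-110, 2 at hsp-6 and 1 at hsp-3. Only 0.145% of protein-coding genes, 29 in number, had 4 or more. Several of the 11 share a region or overlap, and counting overlapping regions once leaves 8. The 0.145% was counted without such merging. For 7 of the 11, the nearest summit in both replicates was among the 1789 strongest of its list. The same share over all replicated summits was not computed.

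The constitutive and stress-induced members stood on opposite sides of the list's limit. All 4 constitutive members had a replicated summit within 1000 bp, and 0 of the 2 stress-induced members did, against 10.7% of all protein-coding genes. Since most genes have none, the count of 0 of 2 does not set the stress-induced members apart from other genes. The strongest pooled summit was of rank 53 at hsp-1, 78 at hsp-110, 199 at hsp-6 and 227 at hsp-3, and of rank 5052 at hsp-70 and 12536 at hsp-4. Counted over all protein-coding genes, 0.36% had a stronger best summit than hsp-1, 0.591% than hsp-110, 1.55% than hsp-6 and 1.74% than hsp-3, while 23.5% had a stronger one than hsp-70 and 40.1% than hsp-4. Having a weak summit nearby says little, since 58.3% of genes had some summit of the unthresholded pooled list within 1000 bp, and all 6 members did. With 2 genes in the stress-induced class and no stressed worms, no test of the difference was possible. The split describes these 6 genes only, and hsp-6, called constitutive here, is also raised by mitochondrial stress. Outside the 6, the heat-induced Hsp70 genes F44E5.4 and F44E5.5 shared a summit of pooled rank 49, described below.

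**Figure D1:**
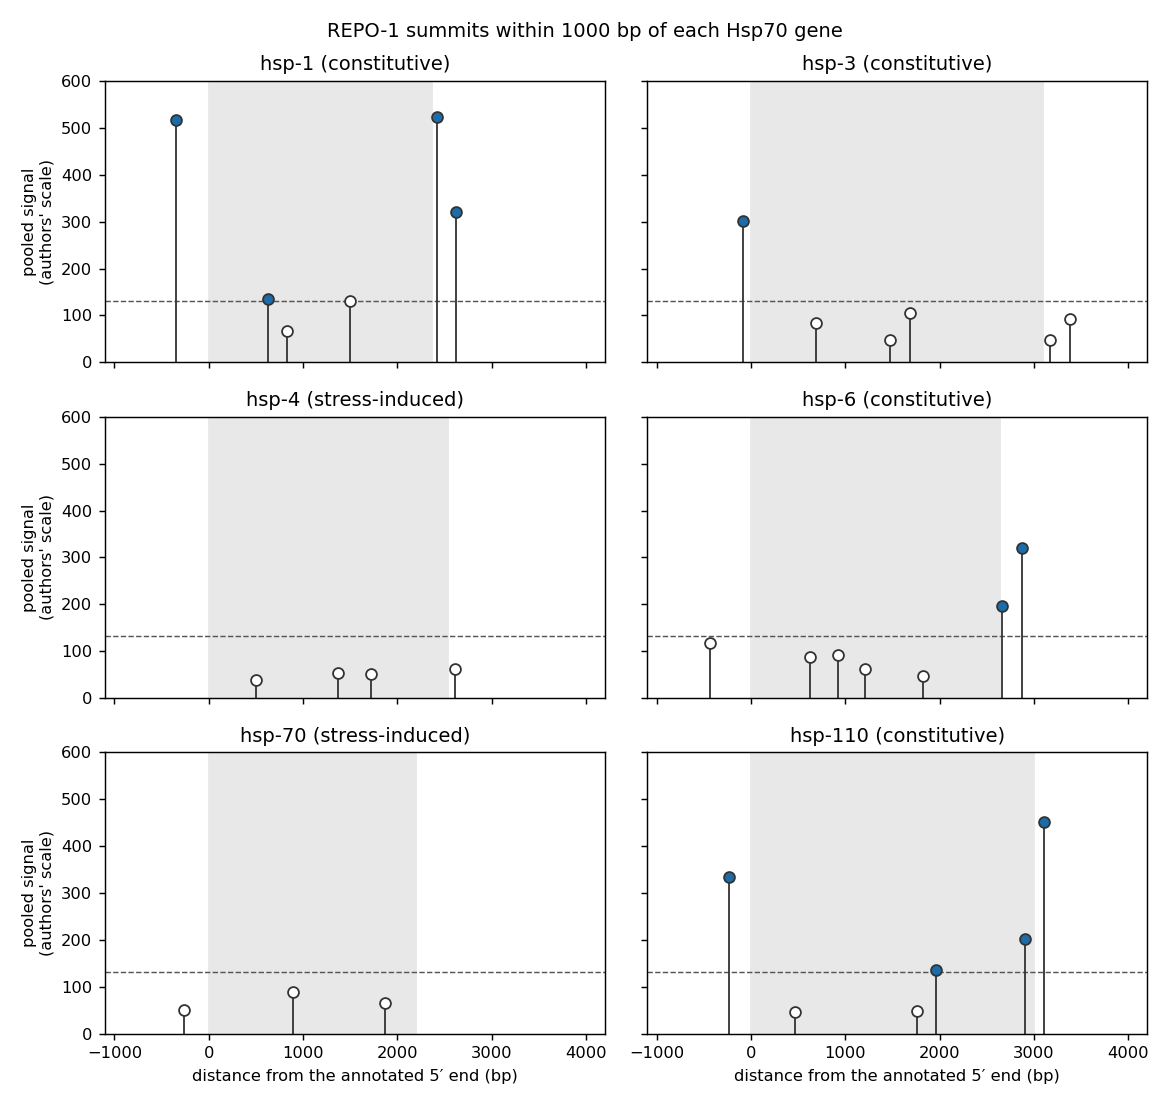
REPO-1 summits of the pooled list at the 6 Hsp70 genes, by distance from the annotated 5′ end in bp (x axis) and pooled signal on the authors' scale (y axis). Grey marks the gene body, filled points are replicated summits, open points are weaker ones and the dashed line is the lowest replicated signal, 131.5; the high points of hsp-1 and hsp-110 lie at both ends and those of hsp-4 and hsp-70 all stay below the line.

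The gene of the cytosolic Hsc70, hsp-1 (WBGene00002005, chrIV:17278959-17281330, plus strand, 2372 bp), had strong summits on either side. The upstream summit lay 347 bp before the annotated 5′ end with a signal of 517.9 in the pooled list (rank 55), 345.4 in replicate 1 (rank 39) and 161.5 in replicate 2 (rank 129). Replicate 1 placed it 6 bp and replicate 2 placed it 2 bp from the pooled position. Downstream, a summit 48 bp past the 3′ end had a signal of 524.1 (rank 53) in the pooled list, 290.9 (rank 61) in replicate 1 and 242.6 (rank 38) in replicate 2. It lay in the gap of 124 bp printed above, which separates hsp-1 from nra-1, a gene that ends towards it on the minus strand. The same region, 1035 bp wide, held a further summit 250 bp past the 3′ end, inside the 3′ UTR of nra-1, with a pooled signal of 319.8 (rank 200), 224.5 in replicate 1 (rank 129) and 57.2 in replicate 2 (rank 1982). Both replicates thus ranked the upstream summit and the one in the gap among their 129 strongest, while the summit inside nra-1 was that high in replicate 1 only. The order of the ends turned between them: the 5′ summit was the stronger in replicate 1 and the 3′ summit in replicate 2, where the signal ratio of 3′ to 5′ was 0.842 and 1.5.

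The upstream summit of hsp-1 lay nearer to another annotated gene. The non-coding gene F26D10.23, on the plus strand, ended 110 bp from it, and the protein-coding gene before hsp-1, clec-196, ended 1210 bp before the annotated start of hsp-1. Many worm mRNAs are trans-spliced, so an annotated 5′ end can be a splice site rather than the place where transcription starts. Within hsp-1, a replicated summit in a coding exon, 626 bp from the 5′ end, had a pooled signal of only 135.5 (rank 1637), near the limit of the list. The replicates placed their nearest summits 180 and 111 bp away from it, at ranks 2537 and 400. A neighbouring summit 1500 bp from the 5′ end fell just outside the list with a signal of 130.6 (rank 1837). For comparison, the weakest replicated summit had a signal of 131.5 and the strongest pooled one outside the list 131.4. The intronic snoRNA gene of hsp-1, F26D10.24, was 257 bp from the nearest pooled summit.

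The Hsp110 gene, hsp-110 (WBGene00016250, chrIII:8443910-8446909, minus strand, 3000 bp), had the same arrangement. Its upstream summit, 240 bp before the 5′ end, had a signal of 333.6 in the pooled list (rank 176), 185.1 in replicate 1 (rank 202) and 140.8 in replicate 2 (rank 192). Its downstream summit, 106 bp past the 3′ end, had a signal of 452.3 in the pooled list (rank 78), 249.5 in replicate 1 (rank 93) and 206.4 in replicate 2 (rank 68). Here the 3′ end was the stronger in every list, by a signal ratio of 1.36 in the pooled list, 1.35 in replicate 1 and 1.47 in replicate 2. A further summit in the 3′ UTR, 93 bp before the 3′ end, had ranks of 633, 611 and 667 in the pooled list and in replicates 1 and 2. A weaker one in a coding exon, 1959 bp from the 5′ end, ranked 1621 in the pooled list and 521 in replicate 1, and the nearest of replicate 2, 168 bp away, ranked 6345.

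Both strong hsp-110 summits sat in short gaps between genes. The upstream gap of 443 bp is shared with rpn-3, a proteasome subunit gene that runs the other way, and the summit was 204 bp from its 5′ end, nearer than to that of hsp-110. The small non-coding gene C30C11.14 lay 54 bp from the same summit. Downstream, a gap of 302 bp separates hsp-110 from ufbp-1 on the same strand, and the summit lay 197 bp from ufbp-1. Which gene of such a pair a summit belongs to cannot be told apart from positions alone.

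The constitutive BiP gene, hsp-3 (WBGene00002007, chrX:6089028-6092124, minus strand, 3097 bp), had a replicated summit at the 5′ end alone. Its summit 91 bp before the 5′ end had a signal of 300.5 in the pooled list (rank 227), 134.1 in replicate 1 (rank 509) and 163.4 in replicate 2 (rank 125). The nearest other gene, C15H9.5, was 1085 bp away. At the 3′ end the strongest summit, 283 bp past the gene, reached a signal of 92.2 in the pooled list (rank 4649), and ranked 3475 in replicate 1 and 8671 in replicate 2. The 5′ summit was thus 3.26 times as strong as the 3′ one in the pooled list, 2 times in replicate 1 and 5.04 times in replicate 2. No summit inside hsp-3 reached the replicated list, the highest being 105.2 (rank 3288), in a coding exon.

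The mitochondrial Hsp70 gene, hsp-6 (WBGene00002010, chrV:4824124-4826760, minus strand, 2637 bp), showed the opposite arrangement. Its strongest summit, 232 bp past the 3′ end, had a signal of 320.2 in the pooled list (rank 199), 187.4 in replicate 1 (rank 195) and 131.6 in replicate 2 (rank 231). A second one only 20 bp past the 3′ end had a pooled signal of 195.9 (rank 684), and ranked 451 in replicate 2 but 8739 in replicate 1. Both lay in a gap of 700 bp before adss-1, on the same strand. Upstream, the strongest summit was 439 bp before the 5′ end, with a signal of 116.4 in the pooled list (rank 2519), 65.6 in replicate 1 (rank 3682) and 52.3 in replicate 2 (rank 2509), and it fell inside the overlapping non-coding genes C37H5.15 and C37H5.16. The 3′ summit was 2.75 times as strong as the 5′ one in the pooled list, 2.86 times in replicate 1 and 2.52 times in replicate 2.

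**Figure D2:**
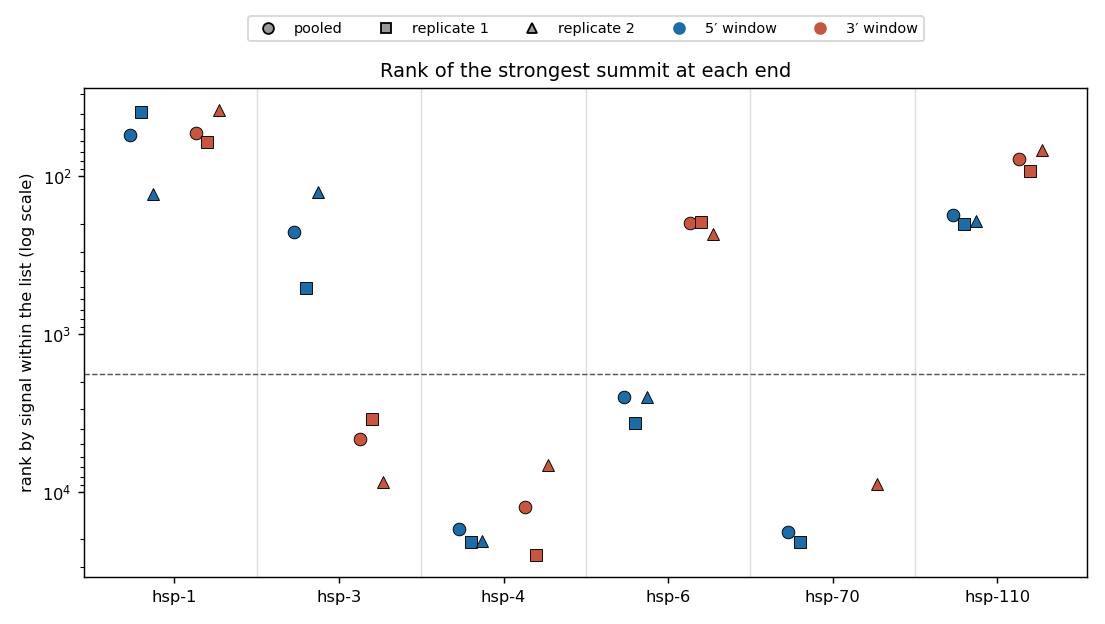
Rank by signal (log axis, strongest at the top) of the strongest summit in the 5′ window (blue) and the 3′ window (red) of each gene, in the pooled list (circles) and in replicates 1 (squares) and 2 (triangles); a window without a summit has no point. The dashed line is rank 1789, and the points of hsp-1 and hsp-110 are above it at both ends, those of hsp-3 at the 5′ end and those of hsp-6 at the 3′ end.

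The stress-induced BiP gene, hsp-4 (WBGene00002008, chrII:7350112-7352645, minus strand, 2534 bp), had weak summits in each list. The pooled list held 4 within 1000 bp, with signals from 39.2 to 61.5, around the list's median of 56.5. The strongest, 76 bp past the 3′ end, ranked 12536, and the strongest near hsp-4 was of rank 16962 in replicate 1 and 6764 in replicate 2. No pooled summit lay upstream of the gene, and its 5′ points in the plot of ranks belong to summits about 1375 bp into the gene, beside an internal transcript start. In replicate 2 a summit 113 bp before the 5′ end ranked 29173 of 30000.

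The heat-induced gene hsp-70 (WBGene00002026, minus strand, 2195 bp) lies on chromosome I, from 9320325 to 9322519, inside an intron of uggt-2, which runs the other way. The pooled list held 3 summits there. The strongest, in a coding exon 898 bp from the 5′ end, had a signal of 89.4 (rank 5052) in the pooled list. The nearest in replicate 1 had 45.8 (rank 9734) and in replicate 2 had 47.5 (rank 3241). Upstream, a summit 259 bp before the 5′ end had a pooled signal of 51.4 (rank 17859), and replicate 2 had no summit on that side within 1000 bp of the gene. Each of these summits therefore also lies in that uggt-2 intron.

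The genes with weak summits, hsp-4 and hsp-70, were made of unique sequence, as were the others. Of the 31-base words in hsp-4, 100% occurred once in the nuclear genome, and so did 99.9% of those in hsp-70. In hsp-3, hsp-6 and hsp-110 the share was also 100%, and in hsp-1 it was 96.8%. Around the replicated summits, from 200 bp before to 200 bp after, every 31-base word was unique except at the weak coding summit of hsp-1 (97.3%). The bases flanking hsp-4 and hsp-70 were not examined in this way. No 31-base word was shared between hsp-3 and hsp-4. The read length is not given in the sources used here, so uniqueness for the actual reads was not examined.

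Split by end, 3 of the 6 genes had a replicated summit in the 5′ window, which reached 500 bp outside and 200 bp inside any annotated transcript start, against 3.49% of all protein-coding genes. In the 3′ window, with the same reach around transcript ends, 3 of 6 did, against 4.48%. The 5′ set was hsp-1, hsp-3 and hsp-110, and the 3′ set hsp-1, hsp-6 and hsp-110. Different summits at both ends were found at hsp-1 and hsp-110, 2 of 6, against 0.616% of all genes. By number, 3 replicated summits were in 5′ windows, 6 in 3′ windows and 2 in the bodies between. The 6 in 3′ windows were pairs in the same or overlapping regions at hsp-1, hsp-6 and hsp-110. Their number therefore shows no lean to 3′ ends. Of the 11, 8 lay outside the gene altogether. No share over all replicated summits was computed for these counts of summits.

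Among the 123 protein-coding genes with a replicated summit at each end, hsp-1 came first when ordered by the weaker of its end signals, 517.9. The next 5 were Y22D7AL.10 (361.3), ztf-7 (357.1), the ATP synthase gene atp-1 (347.4), hsp-110 (333.6) and rpn-3 (314.1). They are the genes most like hsp-1 by this measure in the replicated list. The order is not one of independent genes, because hsp-110 and rpn-3 share the summit between them. The gap from hsp-1 to Y22D7AL.10 was wider than the whole range from Y22D7AL.10 to rpn-3.

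In the pooled list, 2346 genes had different summits at both outermost ends, and the 3′ signal was the stronger in 53.8% of them, with a median ratio of 3′ to 5′ of 1.05. The 5% and 95% points of that ratio were 0.311 and 3.47. The ratio of hsp-3, 0.307, lay just below the lower point, and that of hsp-6, 2.75, below the upper one. In replicate 1 the ratio of hsp-3 was 0.5, inside the range of 0.325 to 3.2 of that list, and in replicate 2 it was 0.198, below the range of 0.301 to 3.18. The lean of hsp-3 to its 5′ end and of hsp-6 to its 3′ end therefore had the same direction in both replicates, but was not beyond the spread of other genes except for hsp-3 in the pooled list and in replicate 2.

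**Figure D3:**
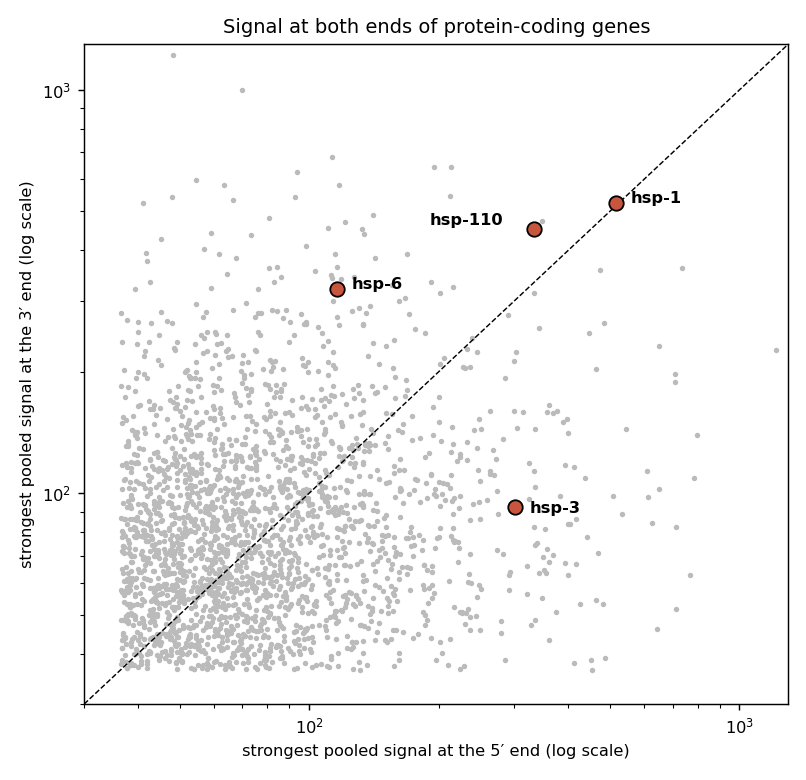
Strongest pooled signal within the 5′ window (x axis) and the 3′ window (y axis) at the outermost ends of 2346 protein-coding genes (grey) and of hsp-1, hsp-3, hsp-6 and hsp-110 (red), both axes logarithmic and on the authors' scale. The dashed line marks equal signals; hsp-1 lies on it at 517.9 and 524.1, hsp-3 far below it and hsp-6 above it, and hsp-4 and hsp-70 are missing for want of a pooled summit at 1 end or both.

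REPO-1 belongs to the splicing machinery, so the introns of the 6 genes were examined. The genes are short of intron: each has 2 to 6 introns, 23 in all, which make up 10.4% of their summed length, and the longest, in hsp-3, is 238 bp. Of the 19 pooled summits inside these genes 18 were in coding exons and 0 in an intron. Taking summits as independent, that allows a share of up to 15.8%. With 19 summits even a count of 0 leaves the limit above the introns' share of length. The count therefore could not show avoidance of introns. The replicate lists did place weak summits in introns of hsp-3 (rank 10813 in replicate 2) and hsp-4 (rank 26134 in replicate 1). Introns this short are also narrower than the listed regions, whose median width is 436 bp.

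In base composition the summits differed widely. The 101 bases centred on the hsp-3 upstream summit were 63.4% G and C, above the upper quartile of 51.5% over all 1789 replicated summits, whose median was 45.5%. Those of the upstream summits of hsp-1 and hsp-110 had 46.5% and 42.6%, and those at the strongest downstream summits of hsp-110 and hsp-6 had 43.6% and 33.7%. The hsp-6 value was below the lower quartile of 37.6%. At the other summits of 3′ windows the share was 37.6% and 33.7% for hsp-1, 21.8% for hsp-6 and 23.8% for hsp-110. The nuclear genome has 35.4%. On the gene's strand the hsp-1 upstream window had 31.7% C and 36.6% T, for which no share over all summits was computed.

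Stress elements were present at members with and without a strong summit. Within 250 bases before the 5′ end, TTCNNGAA occurred at hsp-1, hsp-4, hsp-70 and hsp-110, a motif found in 15% of all such promoters, and at hsp-110 it occurred 2 times. The match farther out, 237 bases before the 5′ end, lay 3 bases from the summit base in the sequence printed above. TGACGTG occurred at hsp-3 and hsp-4 only, 132 and 83 bases before their 5′ ends, against 2.39% of all promoters. The pair of BiP genes thus share this element but not the summit. The matches of the 2 motifs did not overlap. A match describes letters, not binding.

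Other stress-induced chaperone genes did have replicated summits. F44E5.4 and F44E5.5, a pair of heat-induced Hsp70 genes that start away from each other on chromosome II, shared a summit between them with a signal of 533.2 in the pooled list (rank 49), 308.2 in replicate 1 (rank 50) and 223.9 in replicate 2 (rank 55). In the pooled list this was above each summit of the 6 members, while hsp-1 had a stronger one in replicate 1 and in replicate 2. It lay 165 bp from the 5′ end of F44E5.4 and 186 bp from that of F44E5.5. The bases printed above hold 2 of the 5 TTCNNGAA matches that each promoter window has. Over all 1789 replicated summits, 5.31% of such 101-base windows held a match. The genes are near copies: 97.7% of the 31-base words of F44E5.4 are in F44E5.5, and around the summit 69.5% of the words were unique, so reads there can be uncertain in placement. The heat-induced small heat shock genes had 4 of 6 genes with a replicated summit within 1000 bp, against 10.7% of all protein-coding genes. These came through 2 weak summits. That of rank 1614 lay between the copies named hsp-16.48. That of rank 1695 lay 75 bp past hsp-16.2 and 919 bp from hsp-16.41, on the far side of hsp-16.2. Of these 6 genes, 0 had a summit within 1000 bp among the 1789 strongest in both replicates, against 7.55% of all genes. Among the other Hsp70-class genes 4 of 6 had a replicated summit, against the same 10.7%. They were reached through 3 summits, that of the F44E5 pair and those of T24H7.2 and stc-1. The Grp170 gene T24H7.2 had its summit at rank 508, in an intron and 40 bp from the snoRNA gene T24H7.6. The gene stc-1, related to the microsomal Hsp70 STCH, had its summit at rank 1487.

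Cytosolic partners of Hsp70 had a replicated summit within 1000 bp in 7 of 10 cases, against the 10.7% given above. The J-domain genes dnj-12, dnj-13 and dnj-19, whose products stimulate the ATPase of Hsp70, had their strongest summits at ranks 144, 162 and 170. The dnj-12 one lay 697 bp beyond the gene and 14 bp from tmem-107, and the dnj-13 one in an intron of dhgd-1, within whose span dnj-13 lies. The dnj-19 one lay 417 bp before the gene, in the 5′ UTR of nhr-47. The nucleotide exchange factor gene bag-1 had one at rank 441, and unc-23, the BAG2 counterpart, one at rank 579. The unc-23 summit lay 122 bp past the gene, in the 3′ UTR of T19A5.3. Further summits lay within 1000 bp of sti-1, whose product links Hsp70 to Hsp90 (rank 1361), and of hsb-1, whose product restrains HSF-1 (rank 1539). They were 340 and 450 bp past those genes, in coding exons of srbc-58 and eak-7. The ubiquitin ligase gene chn-1, hsf-1 itself and hip-1 had no replicated summit within 1000 bp. The cytosolic Hsp90 gene hsp-90, long known as daf-21, was not counted because the list held the older name, and was looked up after its values were seen. It had summits of rank 225 in its 5′ window and rank 353 in its 3′ window. The first of these lay 877 bp into the gene, beside an internal transcript start. Summits at both ends, as at hsp-1, were found at dnj-13, dnj-19, bag-1 and unc-23, 4 of 10, against 0.616% of all genes.

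In the ER list 4 of 11 genes had a replicated summit, against 10.7% of all protein-coding genes. They were xbp-1, a transcription factor gene of the unfolded protein response (rank 255, 172 bp past its 3′ end), the J-domain gene dnj-20 (rank 722), the calreticulin gene crt-1 (rank 991) and the stress kinase gene pek-1 (rank 994). The mitochondrial list had 5 of 11: the chaperonin gene hsp-60 (rank 15), C34C12.8, of the GrpE exchange factor family (rank 109), the protease gene clpp-1 (rank 403), the stress transcription factor gene atfs-1 (rank 655) and tin-44, whose product anchors mitochondrial Hsp70 at the import channel (rank 787). The hsp-60 summit was 620 bp from the gene and nearer to Y22D7AL.10, at 193 bp. The tin-44 summit lay 241 bp past the gene, in a coding exon of T09B4.3. The same 10.7% of all genes stands beside the mitochondrial count. Intervals of the lists overlapped, and no difference between them was tested.

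**Figure D4:**
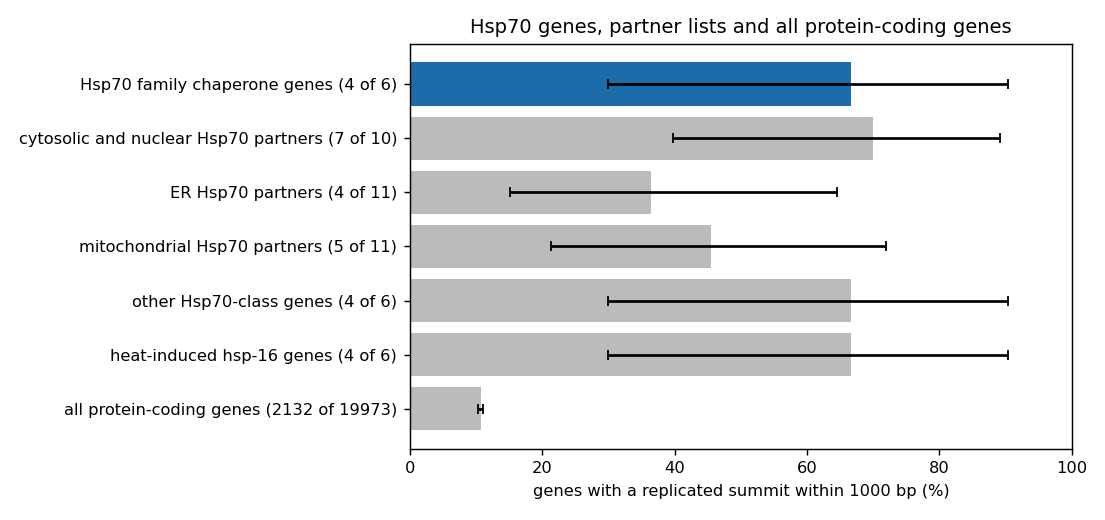
Percentage of genes with a replicated summit within 1000 bp (x axis) for the 6 Hsp70 genes (blue), the partner and relative lists, and all protein-coding genes, with Wilson 95% intervals as bars. The 6 genes are at 66.7%, the cytosolic partners at 70% and all protein-coding genes at 10.7%, and the intervals of the short lists are wide. The 6 genes and the lists were chosen with earlier results of these data known, so the intervals are no test.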

How the data were processed

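REPO-1 ChIP-seq was analysed from 4 peak lists on ce11 (the assembly WBcel235) of whole young adult worms: a list for each of 2 replicates, a pooled list called on both, and the list of replicated peaks thresholded by the irreproducible discovery rate (IDR), per the text files deposited with the samples. Those files also name a further alignment as input to each calling step. The caller and the IDR cut-off are not stated in these sources, and the depth is unknown. Each summit has a signal value deposited by the authors, on an unstated scale, and a deposited −log10 q-value. Because 1354 of the 1789 replicated peaks held the same highest q-value, ranks use the signal. Lists on ce10 were not used.

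Summits (region start plus offset) were placed 1-based on Ensembl release 115 gene models, and the genome sequence is RefSeq's copy of WBcel235. With 1 group and 2 replicates there is no test across samples: counts of the 6 genes are descriptions beside the same count over 19973 protein-coding genes. Wilson 95% intervals cover counting error only. Named genes are the 6 members, the members of 5 lists of partners and relatives with a replicated summit, and the 5 genes with the strongest summits at both ends after hsp-1. Genes next to a summit are named for its position, 3 list genes are named as having no replicated summit, and hsp-90 was named after its values were seen. The members and lists were chosen with earlier results of these data known. Of 45 list symbols, 42 were found, and 1 of these, T12D8.8, is listed as hip-1. The symbols hsp-16.1 and hsp-16.48 each stand for 2 genes in the annotation, while daf-21, hsp-16.11 and hsp-16.49 matched no symbol. Unique 31-base words were counted on both strands of the nuclear genome. The counting was tested on simulated summits. Python 3.11.15, numpy 2.4.6, pandas 2.3.3 and scipy 1.17.1 were used.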

Additional observations from a re-analysis of the deposited data

How the results depend on the processing

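Of 64 counts recomputed under another setting, 61 stayed within 1.5 times the reported count. The 4 constitutive members and 0 stress-induced members with a replicated summit were the counts under each setting run, including windows of 500 and 2000 bp, region overlap, peaks at or above the median signal and the strongest 3578 pooled summits. With each replicate left out in turn, using the strongest 1789 summits of the other, the number of summits was 9 in place of 11 and the counts of genes were as reported. With end windows of 200 bp outside and 100 bp inside the gene, 1 gene (hsp-3) in place of 3 had a summit at the 5′ end and 0 in place of 2 at both ends, since the upstream summits of hsp-1 and hsp-110 lie farther out. Counting only summits whose nearest protein-coding gene is the member left 1 gene with both ends, hsp-1. Counting overlapping regions once, and the outermost ends alone, were added after the data were seen. Ranks by the q-value were tied at 1 for 9 of the 11 replicated summits and do not order them. No paired analysis was possible because there is 1 group. The depth is unknown, so no limit can be set on signal too weak to be listed.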
